A study of Homo sapiens with 6 samples.

Results

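The genes described are 7 that encode serine/arginine-rich (SR) splicing factors, SRSF1, SRSF2, SRSF3, SRSF5, SRSF6, SRSF7 and SRSF11, and 3 that encode CDC2-like kinases, CLK1, CLK3 and CLK4. They were chosen by symbol, each matched 1 Ensembl gene of the count table, and together they are 10 of the 61859 genes in it. RNA was sequenced from IOMM-Lee cells, an established human cell line of malignant meningioma, the tumour type that grows from the meninges. The control group was 3 biological replicates grown in normoxia, for which the labels give no oxygen level, and the treated group was 3 biological replicates kept at 0.2% oxygen. The labelled time was 48 h in both groups. All 6 libraries come from 1 cell line, so the values describe that line.

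SR proteins bind exonic sequences through RNA recognition motifs and recruit the splicing machinery through domains rich in arginine-serine dipeptides. Phosphorylation of those domains governs where the proteins sit and how they act: SRPK kinases phosphorylate them in the cytoplasm for nuclear import, and CLK kinases phosphorylate them further in the nucleus and release them from nuclear speckles. Many SR genes limit their own output by splicing in an exon with an early stop codon, which sends the messenger RNA to nonsense-mediated decay, and CLK transcripts are known for introns that are kept in the nucleus unspliced. Hypoxia is known to alter splicing in tumour cells.

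Library totals ran from 14685317 to 19554178 counts in normoxia and from 10619864 to 18447885 in hypoxia. Levels are in CPM, read counts relative to the library total after TMM scaling, given as mean ± SD (n = 3 per group) or for each replicate in order. Each change is hypoxia against normoxia on the log2 scale with its standard error (SE), and called means a Benjamini-Hochberg adjusted p under 0.05 over all 16411 tested genes in edgeR's quasi-likelihood test. The known oxygen-responsive genes CA9, VEGFA, NDRG1, SLC2A1 and JMJD6 were all called higher, by at least 3.27 on the log2 scale. Of 6 meningothelial markers VIM, DSP and MUC1 were called higher, from 3052 to 6149 CPM, 91.1 to 274 CPM and 6.04 to 25.7 CPM on average, and CDH2 was not called (46.2 and 43.9 CPM). SSTR2 was called lower at under 1 CPM, and PGR had 4 counts in all 6 libraries. Of 6 neural and glial markers 4 were tested: OLIG2 fell from 6.95 to 3.96 CPM and MBP from 1.70 to 0.343 CPM, and RBFOX3 (9.33 and 7.61 CPM) and GFAP (1.32 and 0.940 CPM) were not called. Together the meningothelial markers took 0.316% to 0.384% of the counts of a normoxia library and 0.535% to 0.651% in hypoxia, and the neural and glial markers 0.00194% to 0.00237% and 0.00108% to 0.00126%. None of 4 leukocyte markers and 1 of 3 endothelial markers (PECAM1, 0.945 and 1.69 CPM, not called) was high enough to test. The part of these shifts in the results was not tested. In bulk RNA, fewer cells that express a gene and less of its RNA per cell cannot be told apart.

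All 3 CLK genes rose in hypoxia, 4 of the 7 SR genes fell, SRSF11 rose slightly, and SRSF3 and SRSF5 were not called. The 10 genes were all tested, 4 were called higher and 4 lower. Among all tested genes 62.2% were called, 31.2% higher and 31.0% lower, so calls as such are common in these data. The 3 kinase genes and the 4 SR genes that fell each changed at least 2-fold by the estimate with TMM scaling. Of all tested genes 16.3% were called with such an estimate upward and 17.7% downward. The 95% intervals of CLK4 (from 0.81 on the log2 scale), SRSF2 (to -0.996) and SRSF6 (to -0.86) included changes smaller than 2-fold. Groups did not overlap for 8 of the 10 genes, against 67.9% of all tested genes. The same 4 and 4 calls were counted without hypoxia replicate 3, the library farthest from its group on the second principal component.

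**Figure D1:**
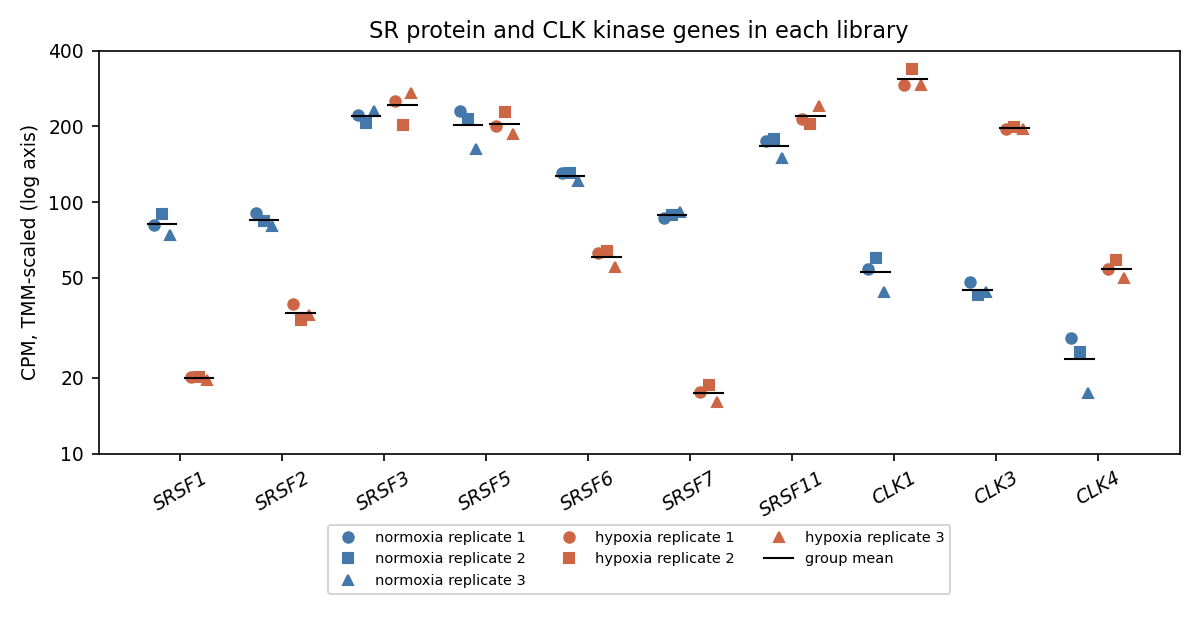
Level of each of the 10 genes in each library, in CPM after TMM scaling on a log axis, with normoxia in blue, hypoxia in orange, 1 symbol per replicate number and a bar at the group mean. CLK1, CLK3 and CLK4 lie higher in hypoxia, SRSF1, SRSF2, SRSF6 and SRSF7 lie lower, and the groups overlap for SRSF3 and SRSF5.

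CLK1 (ENSG00000013441, GRCh38 chromosome 2, 200853009 to 200864744, minus strand), the kinase best known for releasing SR proteins from speckles, showed the largest change of the 10. It was at 54.0, 60.2 and 43.7 CPM in the normoxia libraries and at 291, 339 and 292 CPM in the hypoxia libraries. Every hypoxia library lay far above every normoxia library, and replicate 2 was the highest in each group. The log2 change was 2.55 ± 0.13 (SE), 5.84-fold, with an edgeR adjusted p of 9.37e-08.

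CLK3 (ENSG00000179335, chromosome 15, 74598500 to 74645414, plus strand) encodes a nuclear kinase of the same family. Its levels were 48.0, 42.9 and 43.7 CPM in normoxia and 196, 199 and 196 CPM in hypoxia. The hypoxia libraries differed little from each other, with a coefficient of variation of 0.891%, against 6.12% in normoxia. Its rise was 4.39-fold, a log2 change of 2.13 ± 0.092 (SE), with an edgeR adjusted p of 3.24e-08.

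CLK4 (ENSG00000113240, chromosome 5, 178602664 to 178630615, minus strand), the closest relative of CLK1, had the lowest count level of the 3 in CPM, a scale that is not set per length. It was at 28.7, 25.2 and 17.5 CPM in normoxia and at 54.0, 59.0 and 49.96 CPM in hypoxia. The normoxia libraries were spread most of all 10 genes, with a coefficient of variation of 24.2%, and normoxia replicate 3 was the lowest, yet the groups did not overlap. CLK4 rose 2.27-fold, a log2 change of 1.19 ± 0.17 (SE) with an edgeR adjusted p of 0.000145, which lay between 0.99 and 1.32 when each library was left out in turn.

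The ratio of 1 gene's counts to another's within a library does not depend on how libraries are scaled. CLK1 had 1.88, 2.38 and 2.51 counts per CLK4 count in normoxia and 5.40, 5.75 and 5.85 in hypoxia, so CLK1 gained on CLK4 in every hypoxia library. CLK4 had 0.598, 0.589 and 0.399 counts per CLK3 count in normoxia and 0.276, 0.297 and 0.255 in hypoxia, again without overlap. The ratio of CLK1 to CLK3 went from 1.18 ± 0.206 to 1.56 ± 0.124 (SD, n = 3 per group), a smaller shift. These ratios are descriptions and were not tested.

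The promoter sequences of the 3 kinase genes are shown because the genes rose together. Each is the 250 bases before a transcription start of RefSeq (GRCh38.p14), written 5′ to 3′ on the gene's strand. Capitals mark the core letters that hypoxia-inducible factors are known to bind, ACGTG or GCGTG, on either strand (CACGT or CACGC on the printed one). CLK1 lies at chr2:200864659-200864908 on the minus strand, CLK3 at chr15:74615586-74615835 on the plus strand and CLK4 at chr5:178627051-178627300 on the minus strand. RefSeq lists another start each for CLK1 and CLK3, whose windows also hold such letters.
CLK1: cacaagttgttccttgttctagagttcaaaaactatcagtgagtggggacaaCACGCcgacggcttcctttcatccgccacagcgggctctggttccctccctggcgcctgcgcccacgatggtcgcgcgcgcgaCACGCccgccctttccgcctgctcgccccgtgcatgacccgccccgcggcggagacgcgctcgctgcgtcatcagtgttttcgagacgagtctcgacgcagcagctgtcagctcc
CLK3: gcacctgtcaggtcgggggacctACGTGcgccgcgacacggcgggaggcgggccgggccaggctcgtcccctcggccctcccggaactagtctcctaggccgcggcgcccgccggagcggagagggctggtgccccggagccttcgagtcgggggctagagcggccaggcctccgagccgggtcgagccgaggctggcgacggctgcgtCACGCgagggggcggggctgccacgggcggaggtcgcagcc
CLK4: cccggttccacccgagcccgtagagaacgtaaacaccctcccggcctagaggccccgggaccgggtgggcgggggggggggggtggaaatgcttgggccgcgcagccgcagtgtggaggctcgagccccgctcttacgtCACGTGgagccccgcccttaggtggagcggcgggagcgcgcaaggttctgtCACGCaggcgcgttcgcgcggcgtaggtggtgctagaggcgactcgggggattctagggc
The CLK1 window holds 2 matches, the CLK3 window 2 and the CLK4 window 3, where the opposite strands of 1 palindromic CACGTG (an E-box) give 2 of the 3. Of all 35116 windows of this length in the table, 43.2% hold at least 1 match to either core and 6.34% hold CACGTG. A match describes the letters and does not show binding.

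Of the SR genes, SRSF7 (ENSG00000115875, chromosome 2, 38743599 to 38751494, minus strand) fell most. Its protein carries a zinc knuckle and is known to couple splicing to 3′ end processing and export of messenger RNA. It was at 86.4, 88.6 and 91.4 CPM in normoxia and at 17.6, 18.8 and 16.01 CPM in hypoxia, with no overlap. SRSF7 was thus 5.10-fold lower, at a log2 change of -2.35 ± 0.11 (SE), with an edgeR adjusted p of 4.50e-08.

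SRSF1 (ENSG00000136450, chromosome 17, 58003360 to 58007346, minus strand), the founding SR protein and a known proto-oncogene product, fell nearly as much. It went from 81.3, 89.4 and 74.0 CPM in normoxia to 20.1, 20.2 and 19.7 CPM in hypoxia. The hypoxia libraries were almost level, and all lay well below the normoxia libraries. The log2 change was -2.03 ± 0.11 (SE), 4.08-fold lower, with an edgeR adjusted p of 1.49e-07. In GENCODE release 29, 56.6% of its exon bases are shared with ENSG00000266086, another annotated gene on the same strand that had 5 counts in all, so its level is uncertain.

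SRSF2 (ENSG00000161547, chromosome 17, 76734115 to 76737374, minus strand), which stays in the nucleus and is often mutated in myeloid leukaemias, went from 90.9, 84.1 and 80.1 CPM to 39.4, 33.9 and 35.6 CPM. Every hypoxia library lay below every normoxia library. The level was 2.34-fold lower in hypoxia (log2 change -1.23 ± 0.11, SE), with an edgeR adjusted p of 3.24e-06. MFSD11 on the opposite strand covers 36.7% of the exon bases of SRSF2, and the strand setting of the counting is not given in the sources used here, so reads in the shared part cannot be assigned with certainty. MFSD11 itself had a log2 change of -0.40 and was not called (edgeR adjusted p = 0.0509).

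SRSF6 (ENSG00000124193, chromosome 20, 43457928 to 43464247, plus strand), a regulator of exon choice in genes such as tau, fell least of the 4. It went from 130, 131 and 121 CPM in normoxia to 62.8, 64.0 and 55.1 CPM in hypoxia, with no overlap. The log2 change was -1.07 ± 0.098 (SE), 2.102-fold lower, with an edgeR adjusted p of 5.06e-06. SRSF6P2, a pseudogene copy, took between 5 and 15 counts per library against at least 596 for SRSF6.

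The SRSF1 promoter window is shown beside those of the kinases because the gene moved the other way. It lies at chr17:58007247-58007496 on the minus strand (GRCh38.p14), with the same letters in capitals.
SRSF1: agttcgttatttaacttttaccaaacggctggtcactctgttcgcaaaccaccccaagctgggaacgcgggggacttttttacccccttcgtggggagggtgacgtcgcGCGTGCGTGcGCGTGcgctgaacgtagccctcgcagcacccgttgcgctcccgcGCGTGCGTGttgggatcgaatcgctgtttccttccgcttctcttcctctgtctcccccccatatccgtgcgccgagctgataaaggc
It holds 5 matches to GCGTG, more than any kinase window printed, but some of them overlap within GCGTGCGTG and are not separate stretches. The 9 members with an entry in the RefSeq table have 13 windows, some of them overlapping. Of the 13 windows 11 hold at least 1 match, against 43.2% of all windows. Overlapping windows can hold the same match, and by gene 8 of the 9 members have at least 1. The share of G and C is 78% in the CLK3 window printed, 71.2% in that of CLK4, 64.4% in that of CLK1 and 60% in that of SRSF1, against a median of 58% over all windows, and the background was not matched for it. SRSF5 has no match, which says only that these letters are not in its window. SRSF2 has no window here.

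SRSF3 (ENSG00000112081, chromosome 6, 36594353 to 36605600, plus strand), the smallest SR protein and a factor in messenger RNA export, had the highest normoxia level of the 10 genes in CPM. It was at 222, 207 and 231 CPM in normoxia and at 253, 203 and 271 CPM in hypoxia, so the groups overlapped, with hypoxia replicate 2 the lowest of the 6 libraries. The log2 change was 0.14 with a 95% interval from -0.11 to 0.40 (edgeR adjusted p = 0.300), so a rise or fall of 2-fold lies outside the interval. Without hypoxia replicate 2 the log2 change was 0.24 (edgeR adjusted p = 0.0928), and with library totals alone it was -0.17 (adjusted p = 0.211).

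SRSF5 (ENSG00000100650, chromosome 14, 69726900 to 69772005, plus strand), known as an insulin-induced gene in liver cells, was at 230, 214 and 163 CPM in normoxia and at 202, 228 and 186 CPM in hypoxia. The groups overlapped, and replicate 3 was the lowest in each. For SRSF5 the log2 change was 0.020 with a 95% interval from -0.27 to 0.31 (edgeR adjusted p = 0.903), and its sign differed between settings. Its coefficient of variation in normoxia, 17.2%, was exceeded only by that of CLK4 among the 10.

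SRSF11 (ENSG00000116754, chromosome 1, 70205682 to 70253052, plus strand), an SR protein that contacts U2AF at the 3′ splice site, was at 175, 178 and 150 CPM in normoxia and at 214, 204 and 240 CPM in hypoxia. Every hypoxia library lay above every normoxia library. For SRSF11 the log2 change was 0.39 ± 0.10 (SE), 1.31-fold higher, with an edgeR adjusted p of 0.00706. Scaling by library totals alone ended the call (0.077, edgeR adjusted p = 0.586), as did no filter on low counts (0.27, adjusted p = 0.087) and a test against a change of 1.5-fold.

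**Figure D2:**
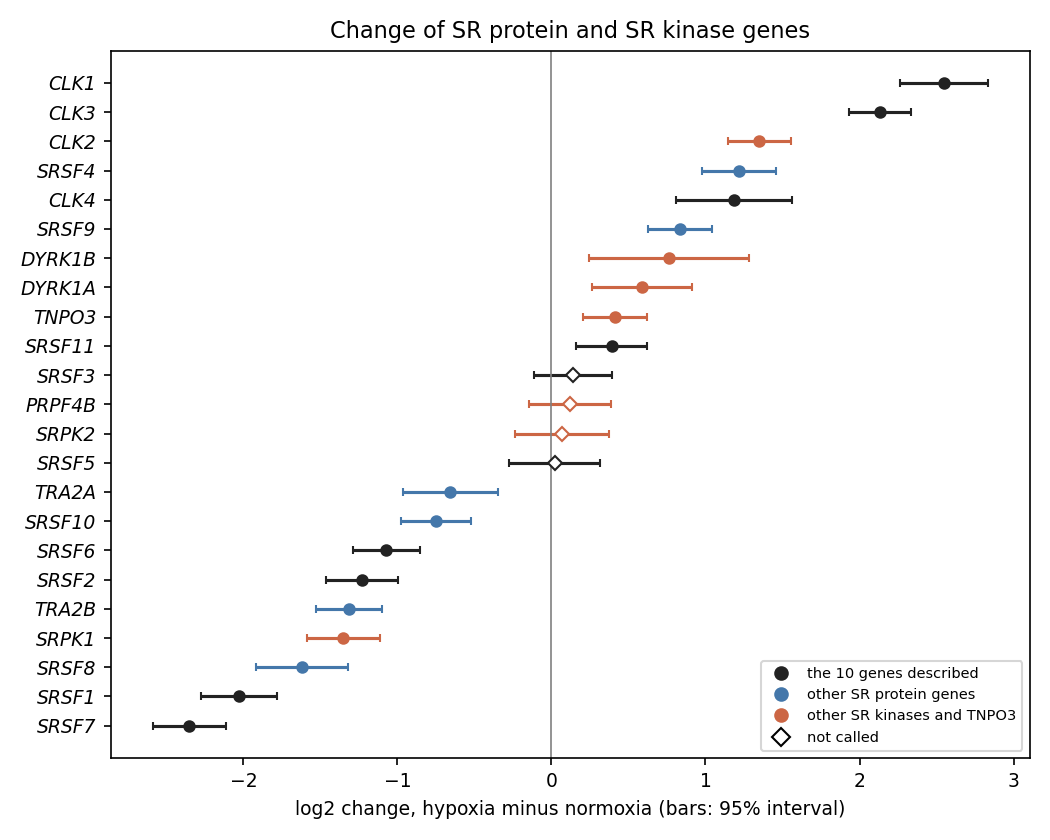
Log2 change in hypoxia against normoxia for the 10 genes (black), the other tested SR protein genes (blue) and the other tested SR kinase genes with the import receptor gene TNPO3 (orange), with 95% intervals; open diamonds were not called. CLK1, CLK3, CLK2 and CLK4 stand among the 5 highest values and SRSF7 and SRSF1 are the lowest.

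Before TMM scaling, the counts of the 10 genes took a similar share of each library total while their make-up shifted. Together they took from 0.108% to 0.132% of all counts in normoxia and from 0.117% to 0.127% in hypoxia, so these ranges overlapped. After TMM scaling their summed level was higher in hypoxia, as the kinase genes gained more CPM than the SR genes lost. Within the counts of the 10 genes the 3 kinase genes held 11.1% ± 0.633 in normoxia and 41.1% ± 2.21 in hypoxia (SD, n = 3 per group). SRSF1, SRSF2, SRSF6 and SRSF7 held 35.04% ± 1.11 in normoxia and 9.88% ± 0.558 in hypoxia. SRSF3, SRSF5 and SRSF11 held 53.9% ± 0.699 and 49.1% ± 2.44. The shares within the 10 genes are free of the scaling between libraries. Since the genes were grouped by their own changes, these shares are given as a description.

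**Figure D3:**
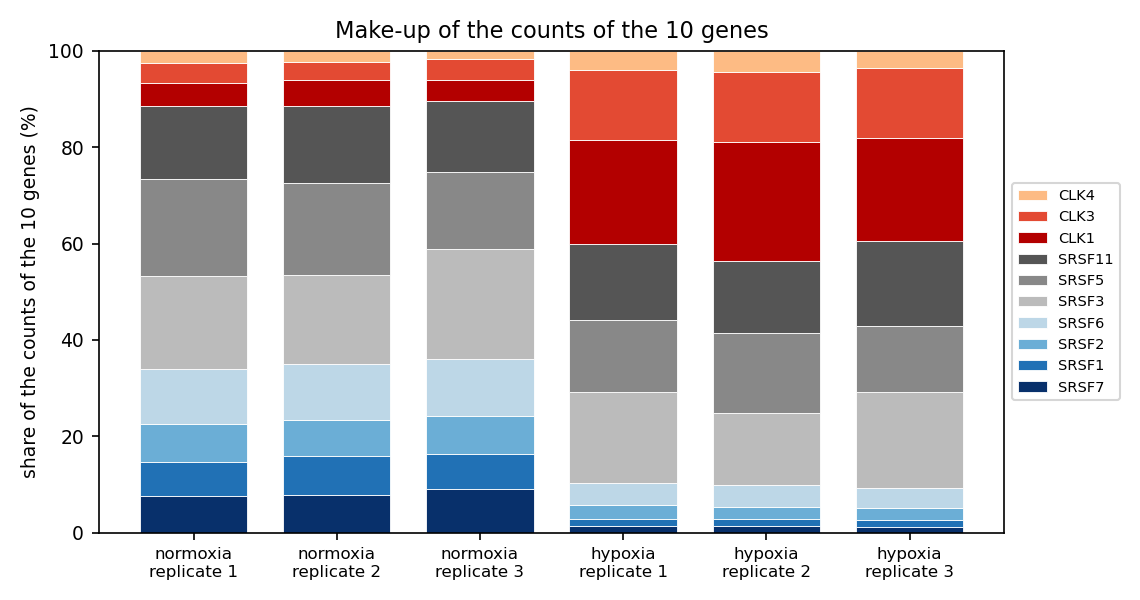
Share of each gene in the summed counts of the 10 genes, in percent, for each of the 6 libraries. The kinase genes (red tones) widen from 11.1% on average in normoxia to 41.1% in hypoxia, and the 4 SR genes in blue tones narrow from 35.04% to 9.88%.

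The SR genes alone also changed in balance. Their summed level was 973 ± 55.4 CPM in normoxia and 802 ± 26.5 CPM in hypoxia (SD, n = 3 per group), with no overlap, while the 3 kinase genes went from 121 ± 14.3 to 559 ± 33.1 CPM. Of the counts of the 7 SR genes, SRSF11 took 17.2% ± 0.745 in normoxia and 27.4% ± 1.56 in hypoxia, and SRSF7 took 9.16% ± 0.797 and 2.18% ± 0.243. The mean shares of SRSF3 (22.7% ± 2.36 and 30.2% ± 3.47) and SRSF5 (20.7% ± 2.47 and 25.7% ± 3.53) were also higher in hypoxia, though neither gene was called. A share of a sum rises where other genes in it fall. SRSF7 had between 0.389 and 0.429 counts per SRSF3 count in normoxia and between 0.0590 and 0.0924 in hypoxia. SRSF7 and SRSF3 are close relatives in sequence and in their roles in export.

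Levels of different genes are comparable only per length of transcript. Divided by the kilobases of all annotated exons (GENCODE release 29), SRSF5 ranked first in normoxia at 37.8 ± 6.50 CPM per kilobase, followed by SRSF3 at 30.9 ± 1.72, SRSF2 at 28.2 ± 1.81 and SRSF6 at 27.7 ± 1.17 (SD, n = 3). SRSF2 and SRSF6 did not differ beyond their spread. SRSF1 at 24.4 ± 2.30, SRSF7 at 21.95 ± 0.628 and SRSF11 at 19.8 ± 1.84 came next, each within about the spread of its neighbour, and CLK1 at 10.2 ± 1.61, CLK4 at 3.00 ± 0.727 and CLK3 at 2.20 ± 0.134 were lowest. In hypoxia CLK1 ranked first at 59.5 ± 5.29, ahead of SRSF5 at 38.3 ± 3.96 and SRSF3 at 34.1 ± 4.98. SRSF1 at 5.99 ± 0.0827 and SRSF7 at 4.32 ± 0.341 came last. The levels and ranks of SRSF1 and SRSF2 are uncertain, as 56.6% and 36.7% of their exon bases are shared with other genes. The order rests on the gene model. With the median length of the protein-coding transcripts in its place, CLK1 went from rank 9 in normoxia to rank 3 in hypoxia. CLK3 went from rank 5 to rank 1, which rests on a short median of 768.5 bp, against 20443 bp of annotated exons.

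The annotation shows what a gene count of these loci can contain. GENCODE release 29 lists 134 transcripts for the 10 genes, of which 48 are protein-coding, 25 are targets of nonsense-mediated decay and 42 keep an intron. All 10 genes have a decay-target transcript and 8 a retained-intron transcript, against 35.6% and 46.2% of all 19951 protein-coding genes. Of the annotated exon bases, 52.2% of CLK1 and 49.4% of CLK4 lie in no protein-coding transcript, as do 38.5% of SRSF7 and 38.4% of SRSF3, against 4.13% of SRSF1 and 3.02% of SRSF2. The deposited counts are 1 number per gene, so productive and unproductive transcripts of a gene were not told apart, and the annotation used for the counting is not given in the sources used here.

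Other members of the SR family moved in both directions. Of 7 further SR and SR-like genes 6 were tested, of which 2 rose and 4 fell, where 62.2% of all tested genes were called. Their median change on the log2 scale was -0.70, against 0.0094 over all tested genes. SRSF4, a large SR protein, rose from 51.1, 51.6 and 59.1 CPM to 112, 128 and 136 CPM, and SRSF9 from 72.0 ± 5.44 to 128 ± 3.20 CPM. TRA2B, a splicing activator close to the SR proteins, fell from 204 ± 7.20 to 82.1 ± 7.53 CPM, and SRSF8 from 48.1 ± 4.37 to 15.7 ± 2.06 CPM. SRSF10 and TRA2A fell by 0.75 and 0.66 on the log2 scale, and both calls were lost against a change of 1.5-fold (edgeR adjusted p = 0.0578 and 0.264). SRSF12 had 27 counts in all and was not tested.

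CLK2, the remaining member of the CLK family, rose too, so that all 4 CLK genes were called higher, as were 31.2% of all tested genes. It went from 43.0, 39.9 and 39.9 CPM to 106, 102 and 105 CPM, 2.55-fold (log2 1.35 ± 0.092, SE), with an edgeR adjusted p of 6.97e-07. SRPK1, the main cytoplasmic SR kinase, fell from 83.0, 95.5 and 87.2 CPM to 33.6, 32.5 and 37.7 CPM, 2.55-fold lower (log2 -1.35 ± 0.11, SE), with an edgeR adjusted p of 1.92e-06. Neither gene's groups overlapped. SRPK2 was at 64.1 ± 5.39 and 67.1 ± 13.2 CPM and was not called (edgeR adjusted p = 0.675), with a 95% interval shown in the plot of log2 changes. SRPK3 had 57 counts in all and was not tested.

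Among the other kinases that can phosphorylate splicing factors, DYRK1A rose from 79.1 ± 6.84 to 119 ± 25.9 CPM and DYRK1B from 4.08 ± 0.370 to 6.84 ± 1.80 CPM. The DYRK1B call was lost without hypoxia replicate 3 (log2 change 0.48, edgeR adjusted p = 0.0744), without normoxia replicate 1 (adjusted p = 0.0553) and without normoxia replicate 3 (0.0558). TNPO3, the import receptor for phosphorylated SR proteins, rose 1.33-fold. Without hypoxia replicate 3 the log2 change of DYRK1A went from 0.59 to 0.37 (edgeR adjusted p = 0.00397). With library totals alone the DYRK1A, DYRK1B and TNPO3 calls were all lost, as they were against a change of 1.5-fold, and that of TNPO3 also with no filter on low counts (log2 change 0.29, edgeR adjusted p = 0.0655). PRPF4B was at 92.2 ± 6.42 and 100 ± 15.1 CPM and was not called (edgeR adjusted p = 0.401).

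Proteins around the SR factors were followed in 4 more lists, given by their counts and medians. Over all tested genes 31.2% were called higher and 31.0% lower, with a median log2 change of 0.0094. Calls took 66.7% of the SR-related list and 73.1% of the list of hnRNP and related genes, against 62.2% of all tested genes. Of 21 SR-related proteins 11 rose and 3 fell, and the median change (log2) was 0.36, against 6 higher, 4 lower and a median of 0.045 with library totals alone. The speckle scaffold gene SRRM2 rose from 779 to 1773 CPM on average and RSRC2 from 74.2 to 146 CPM, while BCLAF1 fell from 198 to 93.8 CPM and THRAP3 from 227 to 150 CPM. The THRAP3 call was lost without hypoxia replicate 2 (edgeR adjusted p = 0.056) and against a change of 1.5-fold (edgeR adjusted p = 0.434). Of 26 hnRNP and related genes, which often oppose SR proteins, 8 rose and 11 fell, with a median of -0.16 (3 and 14, with a median of -0.47, by library totals alone). HNRNPAB fell most, 10.7-fold from 141 CPM in normoxia, and HNRNPM 3.48-fold, while PCBP1 rose 2.66-fold and PCBP2 2.02-fold.

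Of 33 core spliceosome genes 7 rose and 15 fell, and the median change (log2) was -0.25 (2 and 19, with a median of -0.56, by library totals alone). SNRPD3, a subunit of the Sm ring, fell 4.23-fold from 24.3 to 5.83 CPM and SNRNP40 2.56-fold, and SF3A1 rose 2.13-fold and SF3A2 1.53-fold. The SF3A2 call was lost against a change of 1.5-fold (edgeR adjusted p = 0.362). Of 15 genes of nonsense-mediated decay and the exon junction complex 8 rose, among them SMG9, 2.48-fold higher, and 5 fell. Their median was 0.59 (8 and 5, with a median of 0.29, by library totals alone). Calls took 66.7% of the core spliceosome list and 86.7% of the decay list, against 62.2% of all tested genes. Over the 6 lists outside the 10 genes, 40 of 108 tested genes rose and 39 fell, 73.1% in all, against 62.2% of all tested genes. That background was not matched for level. With a filter of at least 1 CPM in 3 libraries, 4860 of 14930 tested genes rose and 4839 fell. With library totals alone the split of the 6 lists was 22 higher and 47 lower. That scaling gave 3421 higher and 6905 lower over all genes, against 5117 and 5091, and moved the median of all genes to -0.30.

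**Figure D4:**
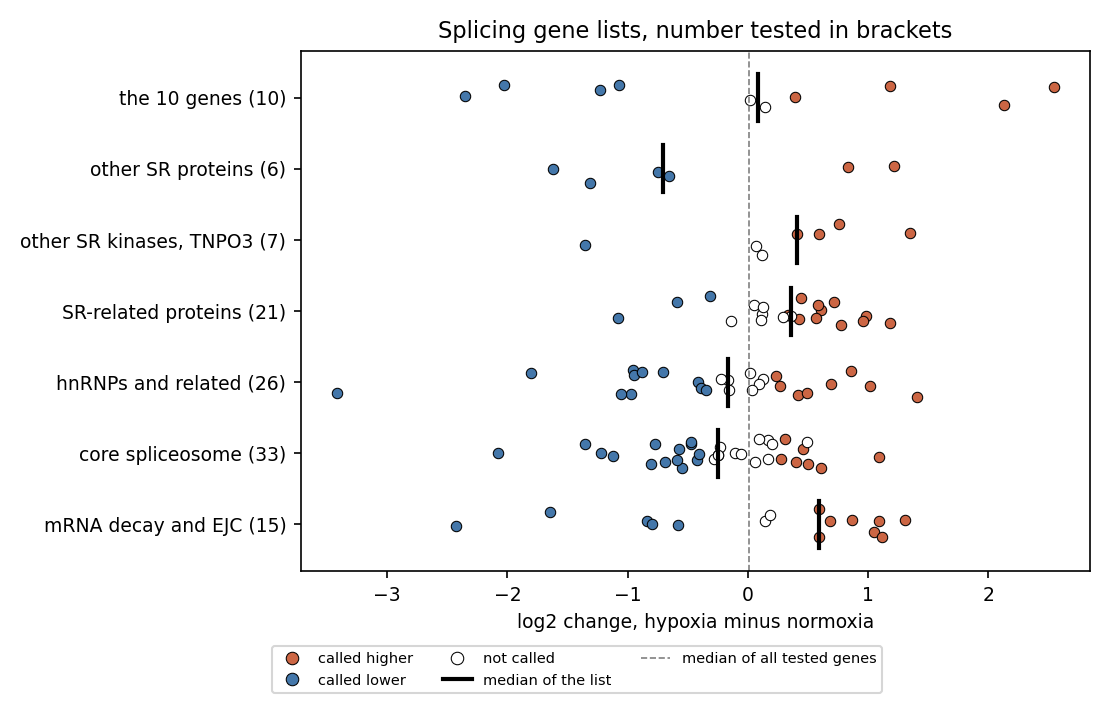
Log2 change of each tested gene of the 7 splicing lists, with the number tested in brackets; points are genes, orange called higher, blue called lower and white not called, thick bars mark list medians and the dashed line the median of all tested genes (0.0094). The 10 genes spread from -2.35 to 2.55 with a median of 0.081, so the list as a whole did not move one way.

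The genes whose pattern over the 6 libraries was nearest to CLK1 and SRSF3 were found among 9339 genes with a mean of at least 10 CPM, by the root mean square difference of centred log2 CPM. For CLK1 they were ARRDC3, VLDLR and CCNG2, at differences of 0.088, 0.11 and 0.11, with log2 changes of 2.53, 2.49 and 2.56. Changes near that of CLK1 follow from how these genes were picked. For SRSF3 they were MAP3K11, GPN3 and MRFAP1, at differences of 0.046, 0.050 and 0.051.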

How the data were processed

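The authors deposited a table of raw read counts per Ensembl gene for 6 RNA libraries, whose libraries were prepared using NEBNext Ultra II RNA reagents per the labels' protocols. The submitters' processing notes list the build GRCh38.p13 and the tools HISAT2 2.1.0, featureCounts 2.0.1, fastp 0.20.1 and DESeq2 1.37.5. How RNA was selected, the strand setting and the annotation are each not given in the sources used here. Of 61860 lines, 1 names no gene (0.00243% of counts) and was left out. A second deposited table, whose cells run together, was not used. Groups and replicate numbers come from sample titles.

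Tests on the counts used edgeR 4.0.16 (R 4.3.3). The filter was filterByExpr (minimum count 10, minimum total 15), the scaling TMM and the test the robust quasi-likelihood F test, hypoxia against normoxia, with all 6 libraries. The SE is the log2 change divided by the square root of F. Log2 CPM uses a prior count of 2. A floor of 3 counts per library corresponds to between 0.133 and 0.316 CPM and covers counting error only. Chi-square per gene between replicates of a group was 5.75 to 39.3, above sampling noise, and each library counts as 1 sample. Gene models are from GENCODE release 29.

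The members and lists were chosen with earlier results of these data known. Text names all 10 members, the other SR and SR kinase genes, and per list up to 2 rises and 2 falls that were called, reached a mean of 1 CPM and did not overlap between groups; 1 such gene is not reported here. Scripts were tested on simulated data. Alternatives were DESeq2 1.42.0, limma-voom (limma 3.58.1), other scalings and filters, a 1.5-fold test, a replicate block and each library left out.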

Additional observations from a re-analysis of the deposited data

How the results depend on the processing

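Of the 8 calls among the 10 genes, all except SRSF11 held under all 16 alternatives. CLK1 ranged from 2.24 to 2.63 on the log2 scale, CLK3 from 1.82 to 2.16, CLK4 from 0.87 to 1.32, SRSF1 from -2.34 to -1.99, SRSF2 from -1.54 to -1.20, SRSF6 from -1.38 to -1.03 and SRSF7 from -2.66 to -2.32. Their edgeR, DESeq2 or limma adjusted p was at most 0.00266. SRSF11 lost its call in 3 of 16. SRSF5 changed sign with upper-quartile scaling (-0.046), library totals alone (-0.29) and no filter (-0.10), and ranged from -0.13 to 0.098 with each library left out. SRSF3 changed sign with library totals alone (-0.17), as did PRPF4B (-0.19) and SRPK2 (-0.24). SRPK2 was also below 0 with no filter (-0.045) and ranged from -0.14 to 0.15 with each library left out. None of these 4 was called in any setting. Against a change of 1.5-fold, 2825 genes were higher and 3045 lower over all genes, and 15 higher and 19 lower over the 6 lists, as that test asks for larger changes. With library totals alone 22 list genes were higher. With a replicate block 4 of the 10 genes were higher and 4 lower, and the calls of all genes were 4862 and 4906. Whether equal replicate numbers mark paired libraries is not given by the sample titles. Deviations of same-numbered libraries correlated at -0.11, 0.086 and -0.038, and not every library correlated best with its own number. With 3 replicates per group these correlations do not settle it. Replicates here may share technical sources, and p-values measure the spread between these libraries alone. SRSF12 and SRPK3 lay too low to test at this depth.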

Other observations

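The exon junction complex, which is placed on spliced messenger RNA and triggers nonsense-mediated decay when it lies beyond a stop codon, showed changes in opposite directions among its subunits. RBM8A was at 25.5 ± 0.798 CPM in normoxia and 4.70 ± 0.717 CPM in hypoxia (SD, n = 3 per group) and fell by 2.43 on the log2 scale, while MAGOHB fell by 1.65 and MAGOH by 0.80 on the log2 scale. EIF4A3, the RNA-clamping helicase of the complex, rose 1.83-fold and CASC3 1.51-fold. MAGOH, EIF4A3 and CASC3 were named after their values were seen. All 5 were called (edgeR adjusted p at most 0.00134), as were 62.2% of all tested genes. For none of the 5 did the groups overlap, as for 67.9% of all tested genes.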
